A study of Oryza sativa with 12 samples.

Results

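Nitrate taken up by a plant is reduced and built into amino acids by a short chain of enzymes, and 6 rice genes of that chain are described here. They encode the nitrate reductases NR2 (Os02g0770800) and NIA1 (Os08g0468100), a nitrite reductase (Os01g0357100), the cytosolic glutamine synthetase GS1;1 (Os02g0735200), the plastid glutamine synthetase GS2 (Os04g0659100) and the ferredoxin-dependent glutamate synthase Fd-GOGAT (Os07g0658400). They were chosen by identifier for their place in the pathway, and are 6 of the 40674 genes of the deposited table. All 6 had enough reads to be tested, as had 25473 genes in all.

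Nitrate reductase, a cytosolic enzyme with a molybdenum cofactor, turns nitrate into nitrite, and nitrite reductase, a siroheme enzyme of the plastid, turns nitrite into ammonium. Glutamine synthetase joins ammonium to glutamate to give glutamine, and glutamate synthase passes the amide nitrogen of glutamine to 2-oxoglutarate, which yields glutamate. In leaves GS2 and Fd-GOGAT also take up again the ammonium that photorespiration releases, whereas GS1 isoforms are best known for glutamine made in the cytosol for transport.

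RNA sequencing was done on aerial organs of 12-day-old rice (Oryza sativa) seedlings of a pair of near-isogenic lines. NIL-TT2HPS32 (HPS32 below) is labelled as carrying loss-of-function TT2, and NIL-TT2HJX (HJX below) as wild type. The TT2 product is a G protein gamma subunit, part of a signalling complex at the plasma membrane. The 4 groups of 3 libraries were HPS32 after 20 h at 42.5 °C, HPS32 at 28 °C, HJX after 20 h at 42.5 °C and HJX at 28 °C. All plants had been grown at 28 °C, and the 42.5 °C treatment is called heat below. The labels do not say whether the libraries of a group came from separate plants, so the p-values measure only the spread between these libraries.

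The libraries held 14785975 to 17871972 gene-assigned reads. TT2 itself (Os03g0407400) had 3 to 7 reads per library in heated HPS32, 1 to 5 in HPS32 at 28 °C, 2 to 4 in heated HJX and 0 to 6 in HJX at 28 °C. It was below the filter and does not check the line labels. Leaf identity was checked with 5 markers, 2 Rubisco small subunits, Rubisco activase and 2 light-harvesting proteins. Their summed level was 1150 to 1422 CPM (a gene's read count over the library size, with TMM scaling between libraries) in heated HPS32, 32434 to 33440 CPM in HPS32 at 28 °C, 674 to 853 CPM in heated HJX and 29225 to 37936 CPM in HJX at 28 °C. The 3 root markers summed to 3.85 to 4.58 CPM in heated HPS32, 8.90 to 11.6 CPM in HPS32 at 28 °C, 2.06 to 3.62 CPM in heated HJX and 7.37 to 13.8 CPM in HJX at 28 °C, and in each group but HJX at 28 °C 1 of the 3 had no read. In bulk RNA, fewer cells of a type and less RNA per cell cannot be told apart.

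Under heat both nitrate reductases, GS2 and Fd-GOGAT fell in both lines, while the counts of nitrite reductase, which have a limit given below, rose. GS1;1, with TMM scaling, changed by at most 1.19-fold. By edgeR's quasi-likelihood test with Benjamini-Hochberg adjustment over all genes, 5 of the 6 genes were called in HPS32, 1 higher and 4 lower, where 70.4% of all tested genes were called, 34% higher and 36.4% lower. In HJX all 6 were called, 2 higher and 4 lower, where 74.9% of all genes were called, 38.1% higher and 36.8% lower. Being called was thus common among all genes. The median log2 fold change of the 6 genes was -2.92 in HPS32 and -3.72 in HJX, beside -0.03 and 0.03 over all tested genes.

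**Figure D1:**
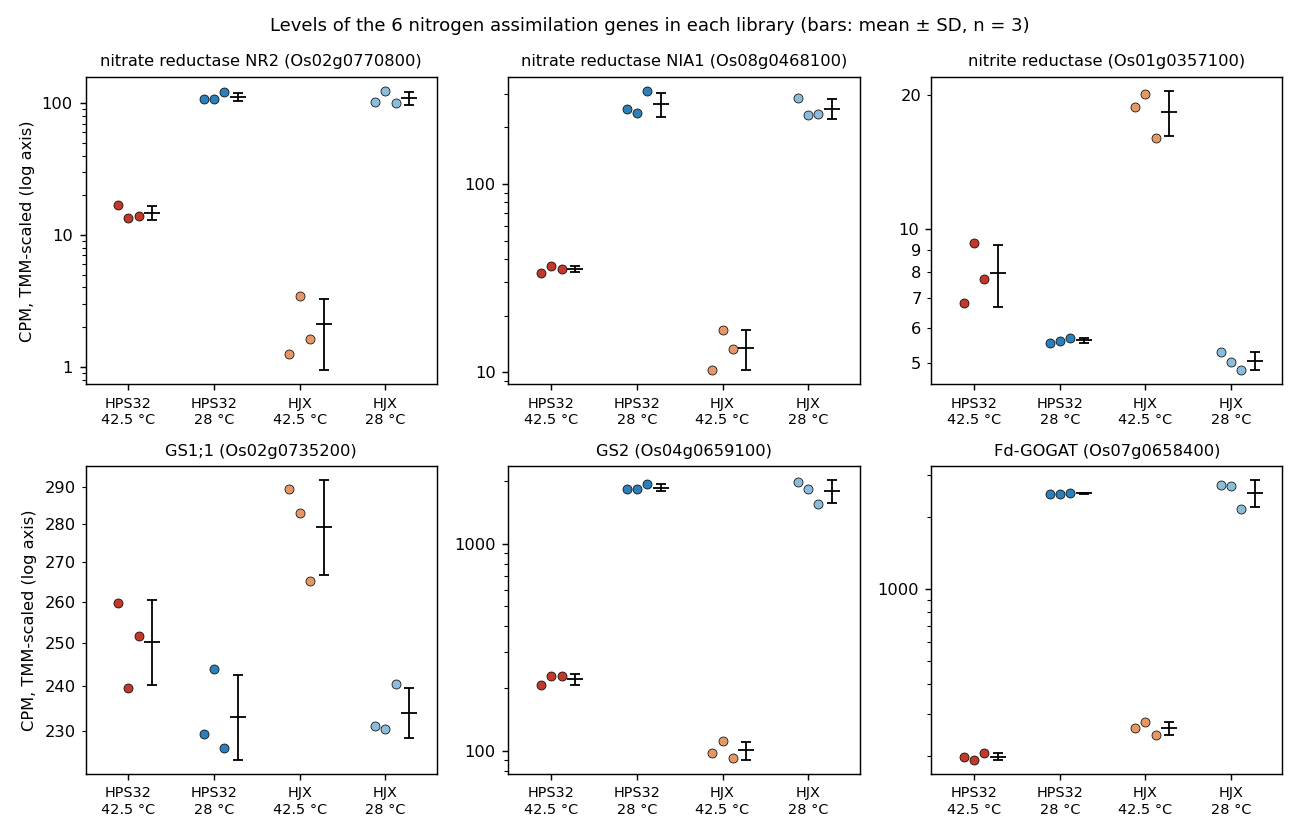
Level of each of the 6 genes in each of the 12 libraries, in CPM with TMM scaling on log axes that differ between panels. Points are libraries and bars give the mean ± SD of 3. The 28 °C groups of the lines overlap for NR2, NIA1, GS1;1, GS2 and Fd-GOGAT, and the heated groups of the lines do not overlap for any of the 6, with the narrowest gap for GS1;1. GS1;1 was not called between the heated lines, where 45.2% of all tested genes were called. The share of all genes without such overlap was not counted.

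The nitrate reductase NR2 lies on chromosome 2, bases 32513749 to 32517155 of the minus strand, in the coordinates of the deposited table, whose genome build is not given in the sources used here. Its level was 16.9, 13.4 and 14 CPM in the heated HPS32 libraries and 107, 108 and 122 CPM in HPS32 at 28 °C. It was 1.26, 3.43 and 1.63 CPM in the heated HJX libraries and 103, 123 and 100 CPM in HJX at 28 °C. Every heated library was below every 28 °C library, and every heated HJX library was below every heated HPS32 library. The lowest group rested on 21, 55 and 31 reads per library.

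NR2 was 7.59-fold lower under heat in HPS32 (log2 fold change -2.93 ± 0.19 SE, edgeR adjusted p = 1.49e-07). In HJX it was 52.3-fold lower under heat, the largest fall among the 6 genes (log2 fold change -5.71 ± 0.24, adjusted p = 2.83e-09). Under heat NR2 was 7.10-fold higher in HPS32 than in HJX (log2 2.83 ± 0.26, adjusted p = 7.61e-06). The test of whether the heat responses of the lines differ gave a log2 difference of 2.78 ± 0.31 (adjusted p = 0.000103).

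NIA1, the most abundant nitrate reductase transcript per length in all 12 libraries, lies on chromosome 8, bases 23033230 to 23038585 of the plus strand. Its level was 33.9, 36.6 and 35.6 CPM in heated HPS32 and 250, 239 and 311 CPM in HPS32 at 28 °C. It was 10.3, 16.7 and 13.4 CPM in heated HJX and 287, 233 and 234 CPM in HJX at 28 °C. The heated libraries of each line were below all 28 °C libraries, and the heated lines did not overlap. Of its span, 33.8% is also covered by an opposite-strand gene model, Os08g0468200, which had 0 reads in every library.

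NIA1 was 7.55-fold lower under heat in HPS32 (log2 -2.92 ± 0.15, adjusted p = 3.73e-09), close to the value of NR2 in that line. In HJX it was 18.7-fold lower (log2 -4.22 ± 0.17, adjusted p = 1.58e-10). Heated HPS32 had 2.63-fold more than heated HJX (log2 1.39 ± 0.16, adjusted p = 1.95e-05), and the heat responses differed by 1.31 ± 0.21 on the log2 scale (adjusted p = 0.000734).

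The other tested nitrate reductase, NIA2 (Os08g0468700), neighbours NIA1 on chromosome 8 and was scarce. It averaged 3.09 ± 0.973 CPM in heated HPS32, 9.11 ± 3.40 CPM in HPS32 at 28 °C, 1.34 ± 0.715 CPM in heated HJX and 10.9 ± 5.19 CPM in HJX at 28 °C (SD, n = 3 each). It fell in HPS32 (log2 -1.55 ± 0.45, adjusted p = 0.0102) and in HJX (log2 -3.06 ± 0.50, adjusted p = 0.000255). The HPS32 call was lost with scaling by total counts (log2 -0.99, adjusted p = 0.0661). Between the heated lines its log2 difference of 1.24 ± 0.54 did not pass (adjusted p = 0.0878). Opposite-strand genes cover 46.1% of its span.

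Summed over the 3 nitrate reductases, the level per length was 16.7 ± 0.527 RPKM (CPM per kilobase of gene length) in heated HPS32, 121 ± 13.9 RPKM in HPS32 at 28 °C, 5.25 ± 1.44 RPKM in heated HJX and 116 ± 8.09 RPKM in HJX at 28 °C. Opposite-strand gene models cover 33.8% of the span of NIA1 and 46.1% of that of NIA2. Their levels may therefore be too low, and with them the sum, while the NR2 share may be too high. The make-up of that sum, as counted, differed as well. NR2 was 29.0% of it in heated HPS32 and 30.4% in HPS32 at 28 °C, with overlapping libraries, but 12.5% in heated HJX and 30.8% in HJX at 28 °C, with no overlap. NIA1 was 65.0% in heated HPS32, 67.1% in HPS32 at 28 °C, 79.0% in heated HJX and 66.1% in HJX at 28 °C. With 3 libraries against 3, the two-sided exact permutation test cannot give a p under 0.1, and it gave 0.5 for the NR2 share for heat in HPS32, and 0.1 for heat in HJX and between the heated lines.

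**Figure D2:**
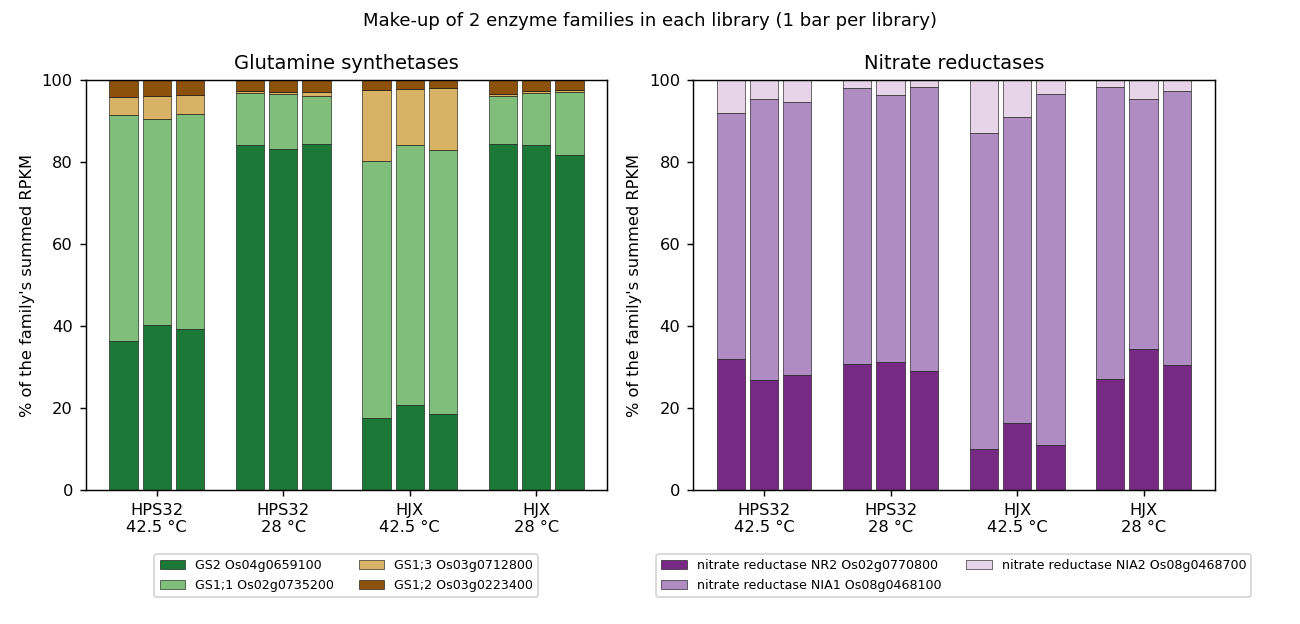
Make-up of the glutamine synthetases (left) and nitrate reductases (right) in each of the 12 libraries, as the percentage of the family's summed RPKM. GS2 makes up over 80% in all libraries at 28 °C, about 39% in heated HPS32 (mean 38.7%) and about 19% in heated HJX (mean 18.9%), and the NR2 share is lowest in heated HJX (mean 12.5%).

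The counts of nitrite reductase went the other way. The gene lies on chromosome 1, bases 14446913 to 14453454 of the plus strand. It had 6.82, 9.33 and 7.73 CPM in heated HPS32 and 5.57, 5.63 and 5.71 CPM in HPS32 at 28 °C. It had 18.8, 20.1 and 16 CPM in heated HJX and 5.32, 5.03 and 4.84 CPM in HJX at 28 °C. Each heated library was above all 28 °C libraries, and all heated HJX libraries were above all heated HPS32 libraries. At 28 °C the HPS32 libraries lay just above those of HJX, a difference that did not pass (adjusted p = 0.922).

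Nitrite reductase was 1.41-fold higher under heat in HPS32 (log2 0.50 ± 0.15, adjusted p = 0.0066) and 3.61-fold higher in HJX (log2 1.85 ± 0.15, adjusted p = 1.01e-09). The HPS32 call was lost without heated HPS32 library 2, where the log2 value was 0.37 (adjusted p = 0.0507). Heated HPS32 was 2.29-fold lower than heated HJX (log2 -1.20 ± 0.14, adjusted p = 1.02e-06), and the heat responses differed by -1.35 ± 0.21 on the log2 scale (adjusted p = 9.64e-05).

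These nitrite reductase counts have a limit that the other 5 genes do not share to that degree. An opposite-strand gene model with the same domains, Os01g0357150, covers 93.5% of its span and had 0 reads in all 12 libraries. In the whole table, 5427 genes are covered to at least 90% by genes of the other strand, and 48.6% of them had no read at all, with a median of 1 read over the 12 libraries. Among the 27438 genes with no gene on the other strand, 14.4% had no read and the median was 1119 reads. The level of nitrite reductase is therefore not compared with the levels of other genes. Its fold changes may likewise rest on only part of the gene and may not represent the whole transcript. A second gene with nitrite reductase-type domains, Os02g0765900, is covered to 94.6% in the same way and had too few reads to be tested. The related reductase Os05g0503300, with no gene on the other strand, fell in HPS32 (log2 -0.58 ± 0.07, adjusted p = 4.66e-07) and in HJX (log2 -0.49 ± 0.07, adjusted p = 3.67e-06). With scaling by total counts its value in HPS32 was -0.02 (adjusted p = 0.781).

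The glutamine synthetases parted by isoform. GS2, the plastid enzyme, lies on chromosome 4, bases 33624428 to 33631025 of the minus strand. Its level was 207, 231 and 229 CPM in heated HPS32 and 1829, 1833 and 1944 CPM in HPS32 at 28 °C. It was 97.9, 111 and 91.9 CPM in heated HJX and 1996, 1845 and 1561 CPM in HJX at 28 °C. Neither the temperatures nor the heated lines overlapped.

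GS2 was 8.42-fold lower under heat in HPS32 (log2 -3.07 ± 0.10, adjusted p = 4.20e-15) and 17.9-fold lower in HJX (log2 -4.16 ± 0.11, adjusted p = 8.06e-17). Heated HPS32 had 2.21-fold more GS2 transcript than heated HJX (log2 1.14 ± 0.10, adjusted p = 2.37e-08). The responses differed by 1.09 ± 0.14 on the log2 scale (adjusted p = 9.55e-06).

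GS1;1, on chromosome 2, bases 30674780 to 30678659 of the minus strand, lay between 226 and 290 CPM in all 12 libraries. It had 260, 240 and 252 CPM in heated HPS32 and 229, 244 and 226 CPM in HPS32 at 28 °C, with overlapping libraries. It had 290, 283 and 265 CPM in heated HJX and 231, 230 and 240 CPM in HJX at 28 °C, where the heated libraries were all higher. The rise in HJX was 1.19-fold (log2 0.26 ± 0.07, adjusted p = 0.00232). In HPS32 the log2 value of 0.10 ± 0.07 did not pass (adjusted p = 0.186).

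Of the 6 genes, GS1;1 depended most on the choice of scaling in sign and call. With scaling by total counts alone, the median over all 25473 genes moved to log2 0.54 for heat in HPS32, 0.32 for heat in HJX and 0.28 for HPS32 over HJX under heat. On that scale GS1;1 was at 0.66 for heat in HPS32 (adjusted p = 4.50e-08). Between the heated lines GS1;1 was at -0.16 ± 0.07 (adjusted p = 0.0661), at -0.16 with the replicate number as a block (adjusted p = 0.0472), and at 0.10 with total counts (adjusted p = 0.241). No other gene of the 6 changed sign with a scaling in the heat comparisons or between the heated lines.

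The other cytosolic isoforms moved in opposite directions. GS1;2 (Os03g0223400) averaged 15.9 ± 0.865 CPM in heated HPS32, 44.3 ± 3.70 CPM in HPS32 at 28 °C, 8.29 ± 1.5 CPM in heated HJX and 44.2 ± 11.2 CPM in HJX at 28 °C. It fell by 1.47 in HPS32 and by 2.42 in HJX on the log2 scale (adjusted p = 9.08e-07 and 5.35e-09). GS1;3 (Os03g0712800) averaged 19.6 ± 3.14 CPM in heated HPS32, 9.74 ± 3.76 CPM in HPS32 at 28 °C, 58.0 ± 9.02 CPM in heated HJX and 7.70 ± 1.58 CPM in HJX at 28 °C. It rose by 1.01 ± 0.25 in HPS32 (adjusted p = 0.00416) and by 2.91 ± 0.25 in HJX (adjusted p = 1.27e-06), also on the log2 scale. Under heat GS1;2 was higher in HPS32 than in HJX (log2 0.95 ± 0.17, adjusted p = 0.000408) and GS1;3 lower (log2 -1.56 ± 0.23, adjusted p = 0.000254).

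Per length, GS2 was 38.7 ± 1.99% of the 4 tested glutamine synthetases in heated HPS32, 83.9 ± 0.574% in HPS32 at 28 °C, 18.9 ± 1.62% in heated HJX and 83.4 ± 1.38% in HJX at 28 °C. GS1;1 was 52.5% in heated HPS32, 12.6% in HPS32 at 28 °C, 63.5% in heated HJX and 13.2% in HJX at 28 °C. The share of GS1;3 was 4.79% in heated HPS32, 0.609% in HPS32 at 28 °C, 15.3% in heated HJX and 0.498% in HJX at 28 °C. For these 3 genes the exact permutation p was 0.1, the smallest possible, for heat in each line and between the heated lines, since no libraries overlapped. Of 32 such share tests over the 3 families none can pass 0.05. The summed glutamine synthetase level was 274 ± 2.95 RPKM in heated HPS32, 1063 ± 33.1 RPKM in HPS32 at 28 °C, 253 ± 14.6 RPKM in heated HJX and 1029 ± 111 RPKM in HJX at 28 °C.

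Fd-GOGAT, on chromosome 7, bases 27723089 to 27738212 of the minus strand, was the gene of the set with the most reads at 28 °C. It had 199, 193 and 205 CPM in heated HPS32 and 2505, 2512 and 2522 CPM in HPS32 at 28 °C. It had 261, 278 and 245 CPM in heated HJX and 2716, 2711 and 2154 CPM in HJX at 28 °C. The heated libraries were below all those at 28 °C, and the heated HPS32 libraries lay below the heated HJX libraries, unlike for GS2 and the nitrate reductases.

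Fd-GOGAT was 12.6-fold lower under heat in HPS32 (log2 -3.66 ± 0.10, adjusted p = 3.33e-16) and 9.67-fold lower in HJX (log2 -3.27 ± 0.10, adjusted p = 5.40e-16). Heated HPS32 was 1.31-fold lower than heated HJX (log2 -0.39 ± 0.09, adjusted p = 0.00191), which was -0.13 with total counts (adjusted p = 0.199). The difference between the heat responses, -0.39 ± 0.13 on the log2 scale, passed with an adjusted p of 0.0328 but was called in only 10 of 20 settings, the reported one included, with adjusted p between 0.0114 and 0.454. NADH-GOGAT2 (Os05g0555600), which draws its electrons from NADH, averaged 5.58 ± 0.868 CPM in heated HPS32, 133 ± 16 CPM in HPS32 at 28 °C, 4.74 ± 0.224 CPM in heated HJX and 143 ± 22.9 CPM in HJX at 28 °C. It was 23.8-fold lower under heat in HPS32 and 30.1-fold lower in HJX (log2 -4.58 ± 0.14 and -4.91 ± 0.15, adjusted p = 2.11e-13 and 7.85e-14). Of the summed RPKM of these 2 genes, Fd-GOGAT made up 93.7% in heated HPS32, 88.8% in HPS32 at 28 °C, 95.8% in heated HJX and 88.0% in HJX at 28 °C. Os01g0681900, a gene model of only 277 bases, was not counted as a glutamate synthase here. It averaged 23.3 ± 1.16 CPM in heated HPS32 and 10.2 ± 0.966 CPM in HPS32 at 28 °C. In HJX it averaged 28.8 ± 2.58 CPM under heat and 9.54 ± 0.646 CPM at 28 °C. Shares that include it were not computed.

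**Figure D3:**
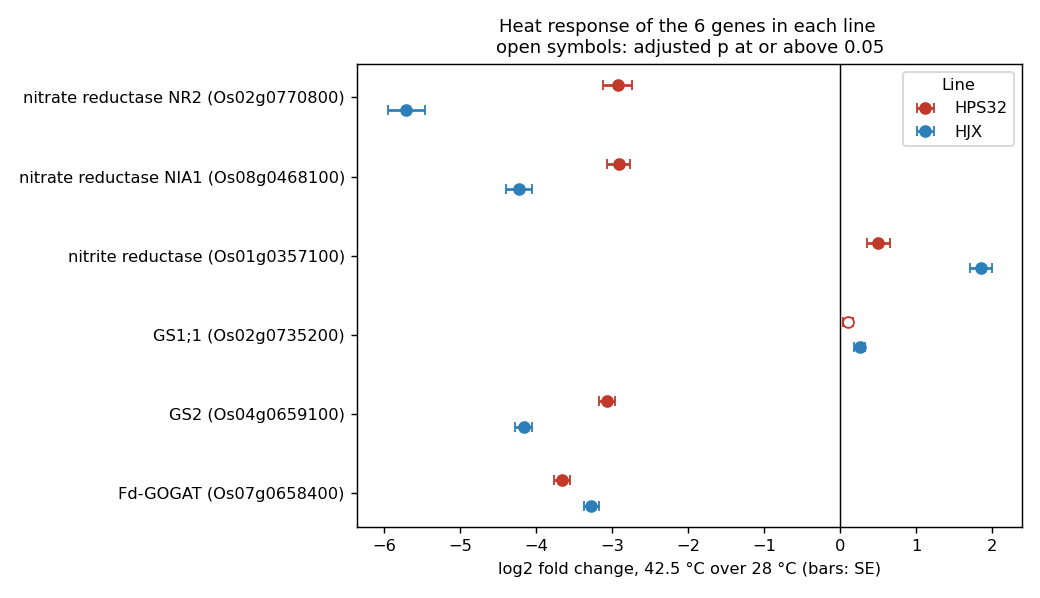
Log2 fold change of 42.5 °C over 28 °C for the 6 genes in HPS32 (red, upper point of each pair) and HJX (blue, lower point), with SE bars; the open point did not pass an adjusted p of 0.05. NR2 falls furthest in HJX (-5.71), nitrite reductase is the furthest above 0 (1.85 in HJX), and Fd-GOGAT alone among the falling genes is lower in HPS32 (-3.66) than in HJX (-3.27).

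All 5 leaf markers fell with heat in both lines as well, for example Rubisco activase (Os11g0707000) at log2 -4.60 ± 0.13 in HPS32 and -5.55 ± 0.14 in HJX (edgeR adjusted p = 4.60e-16 and 3.81e-17). Under heat 4 of the 5 were higher in HPS32 than in HJX and 1 was lower, the Rubisco small subunit Os12g0274700 at -0.34 ± 0.12 (adjusted p = 0.0245). The part of leaf content in the falls of NR2, NIA1, GS2 and Fd-GOGAT was not tested. Of the root markers only LSI1 (Os02g0745100) was tested, and it fell in both lines.

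Per length, the order of the 5 genes without nitrite reductase differed between the temperatures. At 28 °C GS2 came first in both lines, with 892 ± 31.0 RPKM in HPS32 and 859 ± 105 RPKM in HJX. Fd-GOGAT followed with 465 ± 1.59 RPKM in HPS32 and 468 ± 59.8 RPKM in HJX, then GS1;1 with 134 RPKM in each line, NIA1 with 81.6 and 76.9 RPKM, and NR2 with 36.8 and 35.7 RPKM. Neighbours in that order did not overlap between libraries. The place of NIA1 here and under heat is less certain, since an opposite-strand gene model covers 33.8% of its span. In heated HPS32 GS1;1 came first with 144 ± 5.80 RPKM, before GS2 with 106 ± 6.32 RPKM, Fd-GOGAT with 36.8 ± 1.12 RPKM, NIA1 with 10.8 ± 0.420 RPKM and NR2 with 4.84 ± 0.608 RPKM, again without overlap. In heated HJX GS1;1 led with 161 ± 7.21 RPKM, Fd-GOGAT (48.4 ± 3.0 RPKM) and GS2 (47.9 ± 4.76 RPKM) overlapped, and NIA1 (4.12 ± 0.985 RPKM) and NR2 (0.690 ± 0.382 RPKM) came last.

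At 28 °C no difference between the lines was detected for any of the 6 genes. By edgeR 0 of 6 were called, 0 had an unadjusted p under 0.05, and DESeq2, limma-voom and the blocked fit also called 0, where 0.0864% of all genes were called, 0.0432% higher and 0.0432% lower. The log2 differences of HPS32 over HJX were 0.04 ± 0.17 for NR2, 0.09 ± 0.14 for NIA1, 0.15 ± 0.16 for nitrite reductase, -0.01 ± 0.07 for GS1;1, 0.05 ± 0.10 for GS2 and -0.01 ± 0.09 for Fd-GOGAT. Among 12 related enzymes 0 were called by edgeR. The glutamate dehydrogenase Os04g0543900, at -0.27 ± 0.10 (edgeR adjusted p = 0.655), was the 1 of them with an unadjusted p under 0.05.

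Under heat the lines parted. Of the 6 genes 5 were called, with NR2, NIA1 and GS2 higher in HPS32 and nitrite reductase and Fd-GOGAT lower, where 45.2% of all genes were called, 21.6% higher and 23.6% lower. For the difference of the heat responses 5 of 6 were called, 3 higher and 2 lower, where 29.3% of all genes were called, 13.3% higher and 16% lower. The comparisons share libraries, so the calls repeat each other in part. Among the 12 related enzymes 6 were called between the heated lines, 1 higher and 5 lower in HPS32. That balance depended on the scaling: with total counts 6 were higher and 4 lower in HPS32, and of the 6 genes 3 were higher and 1 lower. With that scaling the median log2 difference over all tested genes was itself 0.28.

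**Figure D4:**
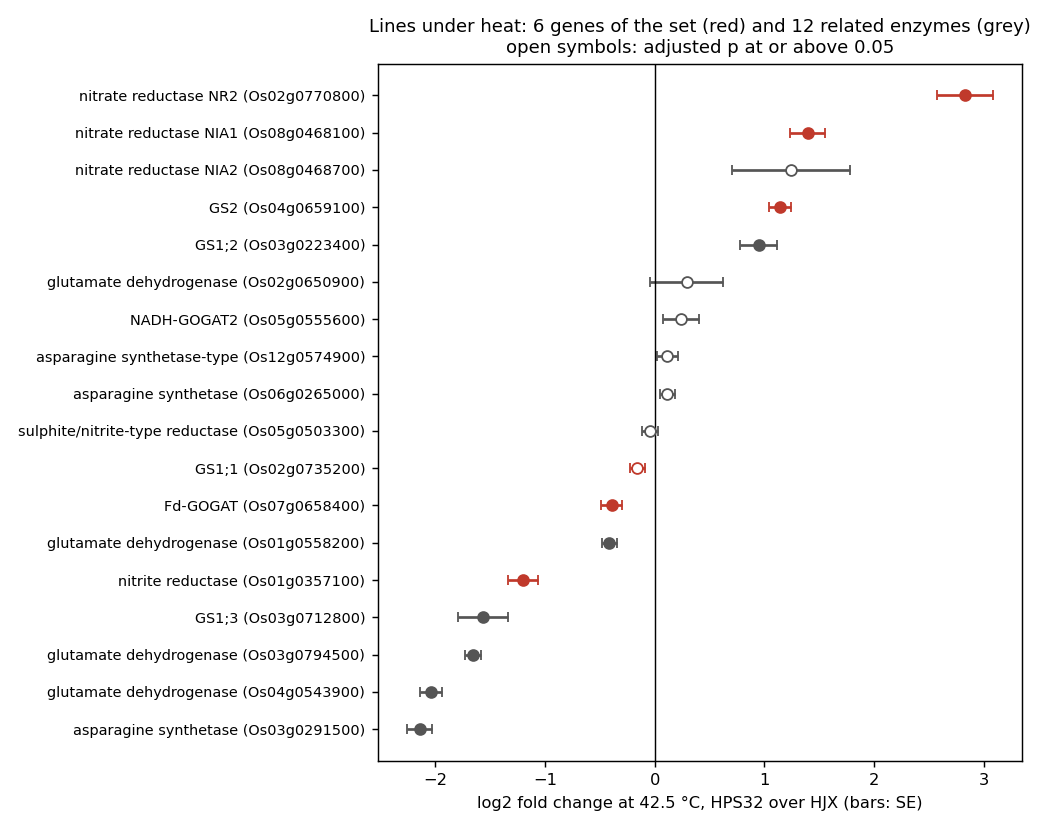
Log2 fold change of HPS32 over HJX at 42.5 °C, with SE bars, for the 6 genes (red) and 12 related enzymes (grey); open points did not pass an adjusted p of 0.05. NR2 (2.83), NIA1 (1.39), GS2 (1.14) and GS1;2 (0.95) are higher in HPS32, and the asparagine synthetase Os03g0291500 (-2.14) and the glutamate dehydrogenase Os04g0543900 (-2.04) are the lowest.

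The related enzymes were chosen by enzyme family, so their place around the glutamine synthetase and glutamate synthase cycle is not a result. The lowest of them in heated HPS32 relative to heated HJX were an asparagine synthetase and the glutamate dehydrogenase Os04g0543900. Asparagine synthetase Os03g0291500, which moves amide nitrogen from glutamine to aspartate, had 245, 255 and 248 CPM in heated HPS32 and 155, 187 and 197 CPM in HPS32 at 28 °C. It had 1113, 1110 and 1076 CPM in heated HJX and 153, 220 and 212 CPM in HJX at 28 °C. The heated HJX libraries stood apart from all others, and Os03g0291500 was 4.41-fold lower in heated HPS32 than in heated HJX (log2 -2.14 ± 0.12, adjusted p = 1.72e-10). It rose under heat by 0.47 ± 0.11 on the log2 scale in HPS32 and by 2.49 ± 0.12 in HJX (adjusted p = 0.00114 and 2.03e-12). The other tested asparagine synthetases, Os06g0265000 and Os12g0574900, did not pass between the heated lines (log2 0.12 each, adjusted p = 0.185 and 0.35), though both passed with total counts (log2 0.37 each, adjusted p = 0.000139 and 0.00465). With heat Os06g0265000 fell in HPS32 and HJX (log2 -1.11 and -1.21, edgeR adjusted p = 3.23e-11 and 6.05e-12). Os12g0574900 rose in HPS32 and HJX (log2 0.56 and 0.44, edgeR adjusted p = 5.42e-05 and 0.000679).

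Glutamate dehydrogenase interconverts glutamate with 2-oxoglutarate and ammonium. Os04g0543900 averaged 228 ± 7.59 CPM in heated HPS32, 194 ± 23.8 CPM in HPS32 at 28 °C, 938 ± 33.2 CPM in heated HJX and 234 ± 35.5 CPM in HJX at 28 °C. Os03g0794500 averaged 103 ± 1.72 CPM in heated HPS32, 76.6 ± 6.70 CPM in HPS32 at 28 °C, 326 ± 18.8 CPM in heated HJX and 82.9 ± 2.98 CPM in HJX at 28 °C. Both were lower in heated HPS32 than in heated HJX, by 4.11-fold and 3.16-fold (log2 -2.04 ± 0.10 and -1.66 ± 0.07, adjusted p = 1.96e-11 and 3.17e-12). Under heat 3 of the 4 glutamate dehydrogenases rose in HPS32 and 3 in HJX, where 34% and 38.1% of all tested genes rose. Besides these, Os02g0650900 rose (log2 1.89 ± 0.40 in HPS32 and 1.58 ± 0.41 in HJX, adjusted p = 0.000314 and 0.00166). Its reads were few, with 26 in all over the libraries of HPS32 at 28 °C and 27 over those of HJX at 28 °C. With total counts all 4 glutamate dehydrogenases rose in each line. Os01g0558200 fell in HPS32 (log2 -0.22 ± 0.07, adjusted p = 0.00849) but was higher there with total counts (log2 0.34, adjusted p = 0.000242).

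Genes that supply or regulate these enzymes were followed through lists chosen by domain or identifier. Over all tested genes 34% rose and 36.4% fell in HPS32, and 38.1% rose and 36.8% fell in HJX. Counts here and in the next paragraphs are to be read beside those shares. With total counts the median log2 fold change over all genes was itself 0.54 in HPS32 and 0.32 in HJX. The P-II protein (Os05g0133100), a nitrogen regulatory protein by its domain, averaged 22.2 ± 0.711 CPM in heated HPS32 and 44.2 ± 2.63 CPM in HPS32 at 28 °C. It averaged 16 ± 0.459 CPM in heated HJX and 45.6 ± 2.07 CPM in HJX at 28 °C. This gene fell in both lines (log2 -0.99 and -1.51, edgeR adjusted p = 1.74e-09 and 3.17e-12). Of 8 tested 14-3-3 genes, a family known to bind phosphorylated nitrate reductase, 2 rose and 5 fell in each line. The largest fall was Os02g0580300 (log2 -1.39 ± 0.08 in HPS32 and -1.78 ± 0.08 in HJX). The largest rise was Os01g0209200 in HPS32 (log2 1.34 ± 0.23) and Os04g0462500 in HJX (log2 1.54 ± 0.09). With total counts 3 of the 8 rose and 4 fell in HPS32, and 3 rose and 2 fell in HJX. Of 9 tested RWP-RK genes, the domain of the nitrate-responsive NLP factors, 3 rose and 5 fell in each line, and with total counts 4 rose and 1 fell in HPS32 and 4 rose and 2 fell in HJX. The largest fall there was Os01g0236700 at -1.26 ± 0.07 in HPS32 and -0.79 ± 0.07 in HJX on the log2 scale. The largest rise was Os06g0228950 in HPS32 (log2 1.79 ± 0.42), with group means of 1.34 CPM or less. In HJX it was Os02g0136000 (log2 1.94 ± 0.17).

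Of 5 tested genes of molybdenum cofactor synthesis, 1 rose and 2 fell in HPS32, and 2 rose and 2 fell in HJX. With total counts 3 rose and 0 fell in HPS32, and 3 rose and 2 fell in HJX. Os02g0258900 among them averaged 84.1 ± 4.06 CPM in heated HPS32, 88.8 ± 5.71 CPM in HPS32 at 28 °C, 166 ± 8.44 CPM in heated HJX and 81.1 ± 1.61 CPM in HJX at 28 °C. Of 3 genes with a tetrapyrrole methylase domain, listed for siroheme synthesis, 3 rose in HPS32 and 1 in HJX. Whether each of them acts in siroheme synthesis was not tested. Os03g0355800 had the largest rise in each line (log2 1.23 ± 0.13 in HPS32 and 0.76 ± 0.13 in HJX). All 3 genes were higher in heated HPS32 than in heated HJX, where 21.6% of all tested genes were higher. Os01g0631200 led (log2 0.69 ± 0.09, edgeR adjusted p = 7.21e-06).

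Photorespiration genes, which share ammonium with GS2 and Fd-GOGAT, were 15 in number, and 4 rose and 10 fell in HPS32, while 5 rose and 9 fell in HJX. Their median log2 fold change was -0.65 in HPS32 and -1.76 in HJX, beside -0.03 and 0.03 over all genes, and with total counts 6 rose and 7 fell in HPS32. The glycine cleavage P-protein Os06g0611900 fell furthest in HPS32 (log2 -3.57 ± 0.11). In HJX the FMN-dependent dehydrogenase Os03g0786100, a glycolate oxidase-type gene, fell furthest (log2 -4.65 ± 0.11). The serine hydroxymethyltransferase Os12g0409000 rose most in HPS32 (log2 0.85 ± 0.09). Another FMN-dependent dehydrogenase, Os04g0623500, rose most in HJX (log2 1.63 ± 0.10). Of 7 tested ammonium transporter genes 2 rose and 2 fell in HPS32, and 3 rose and 3 fell in HJX, while with total counts 3 rose and 1 fell in HPS32 and 3 rose and 2 fell in HJX. Of 3 tested genes of high-affinity nitrate transport, 2 fell in each line, led by Os01g0547600, whose group means were 1.71 CPM or less. Of 11 tested phosphoenolpyruvate carboxylases and isocitrate dehydrogenases, which feed carbon to the cycle, 1 rose and 5 fell in HPS32 and 3 rose and 5 fell in HJX, but with total counts 6 rose and 4 fell in HPS32 and 4 rose and 5 fell in HJX.

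The genes most like each of the 6 across the 12 libraries were found by Pearson's r on log2 CPM among 14065 genes. The libraries of both temperatures and both lines enter each r, which is given as a description. For GS2 they were a photosystem I subunit N gene (Os12g0189400), a glyceraldehyde 3-phosphate dehydrogenase (Os04g0459500) and an ATP synthase delta subunit (Os02g0750100), each at r = 0.999. For Fd-GOGAT they were Os12g0169400, with CBS and PB1 domains, the AAA-domain gene Os02g0564400 and the serine hydroxymethyltransferase Os03g0738400, each at r = 0.999. NR2 was closest to the CRM-domain gene Os01g0323300 (r = 0.998), and NIA1 to the ribosomal protein L34 gene Os01g0805000 (r = 0.998). Nitrite reductase was closest to the protein kinase gene Os03g0744300 (r = 0.994). GS1;1 had the lowest values, with Os10g0430900 at r = 0.953.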

How the data were processed

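The deposited table holds raw counts per gene and library, made by the authors. HISAT2 2.0.5 for alignment, featureCounts 1.5.0-p3 for counting and DESeq2 1.20.0 are named in the submitters' processing notes. Of its per-sample columns, 12 with FPKM values were not used, and the alternatives planned on them were not run. Whether counting used strand, the genome build and the annotation are not given in the sources used here. Heat columns could be tied to a group but not to a numbered sample, so heat libraries are numbered as the columns are.

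Counts were tested in R 4.3.3 with edgeR 4.0.16 (filterByExpr, TMM, robust quasi-likelihood F test, 1 model over 12 libraries, 5 comparisons), two-sided, with Benjamini-Hochberg adjustment over 25473 genes and a threshold of 0.05. Per the file headers the table gives a gene length in bases. The SE is the log2 fold change divided by the square root of F. Levels are CPM with TMM scaling (factors 0.843 to 1.28), mean ± SD of 3 libraries; RPKM divides them by the deposited gene length. Other settings tried were scaling by RLE or by total counts, testing without a filter, a filter of CPM of at least 1 in 3 libraries, a replicate block at 28 °C, the compared groups alone, DESeq2 1.42.0, limma-voom (limma 3.58.1) and leaving out each library. Of the steps, only the edgeR test was tried on simulated counts.

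The 28 °C libraries are numbered 1 to 3 in each line. Deviations from the group means of same-numbered libraries correlated across 20255 genes (r = 0.448, 0.120 and 0.422), and those of different numbers at -0.452 to 0.0783. The second value lay close to the highest of the different numbers, and deviations within a group of 3 are not independent. The numbers may thus pair these libraries, but the data do not settle it. This possible pairing comes from the data, not the labels.

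The 6 genes and the lists were chosen with earlier results of these data known, and 20 accidental matches of the list wording were removed. Named are the 6 genes and the other tested enzymes listed for their families, for glutamate dehydrogenase and for asparagine synthetase. Os01g0681900 was not in these lists and is not among the related enzymes. From other lists, called genes with the largest change in a direction are named, though not for every list and direction. Genes most like each of the 6 (average log2 CPM of at least 1) are named too. Further genes named for strand overlap, and Os01g0681900, were chosen after their values were seen. The reference table paired 0 of the 6 identifiers, so gene names come from general knowledge matched to identifier and deposited domain.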

Additional observations from a re-analysis of the deposited data

Results flagged for a closer look

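The heat response differed between the lines, by the interaction test of edgeR with Benjamini-Hochberg adjustment, for 5 of the 6 genes and for 6 related enzymes. Values are log2 differences, the response in HPS32 minus that in HJX. They were 2.78 for NR2 (Os02g0770800, adjusted p = 0.000103), 1.31 for NIA1 (Os08g0468100, 0.000734), 1.09 for GS2 (Os04g0659100, 9.55e-06), -1.35 for nitrite reductase (Os01g0357100, 9.64e-05) and -0.39 for Fd-GOGAT (Os07g0658400, 0.0328). GS2, NR2 and NIA1 thus fell less in HPS32 than in HJX, and nitrite reductase rose less. The nitrite reductase counts may cover only part of the gene. Among the related enzymes the difference was 0.94 for GS1;2 (Os03g0223400, adjusted p = 0.00653) and -1.90 for GS1;3 (Os03g0712800, 0.00253). It was -2.02 for the asparagine synthetase Os03g0291500 (adjusted p = 8.67e-08). For the glutamate dehydrogenases it was -1.77 for Os04g0543900 (4.84e-08), -1.54 for Os03g0794500 (4.22e-09) and -0.35 for Os01g0558200 (0.0123). The last was -0.08 with scaling by total counts (adjusted p = 0.566). With that scaling the asparagine synthetases Os06g0265000 (0.37, adjusted p = 0.00595) and Os12g0574900 (0.39, 0.0467) and NADH-GOGAT2 (Os05g0555600, 0.60, 0.0239) passed as well, so that 4 related enzymes were higher and 4 lower, against 1 higher and 5 lower with TMM. Fd-GOGAT no longer passed with total counts (-0.12, adjusted p = 0.454). Over all genes tested 29.3% were called in this comparison with TMM, and with total counts the median over all genes was 0.28.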

How the results depend on the processing

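NR2, NIA1 and GS2 kept direction and call under all settings run for heat in each line, the lines under heat and the interaction, as did nitrite reductase apart from heat in HPS32 without 1 library. Total-count scaling moved Fd-GOGAT to -0.13 between the heated lines and -0.12 for the interaction, and GS1;1 to 0.66 for heat in HPS32, 0.10 between the heated lines and 0.11 for the interaction, a change of sign in the last 2; the shift of all genes under that scaling is given in the report. The Fd-GOGAT interaction also missed the threshold at -0.34 with RLE, and ranged from -0.44 to -0.28 without 1 library, where 8 of the 12 omissions ended the call. Nitrite reductase for heat in HPS32 ranged from 0.37 to 0.60 without 1 library, and the call ended without heated HPS32 library 2. GS1;1 passed for heat in HPS32 with the compared groups alone (0.16) and with DESeq2 (0.14), and between the heated lines with the replicate block (-0.16) and limma-voom (-0.16). The block changed no other call of the 6 genes. The cause of these changes was not tested.

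Between the lines at 28 °C, values near 0 changed sign without a call. Fd-GOGAT was at 0.000325 with the replicate block and 0.000624 with limma-voom. Without 1 library the range was -0.019 to 0.14 for NR2, -0.039 to 0.19 for NIA1, -0.038 to 0.016 for GS1;1, -0.039 to 0.13 for GS2 and -0.11 to 0.047 for Fd-GOGAT. Of 160 counts of genes called higher or lower over the lists, 29 moved by over 1.5 times with total counts. The share differences moved by less than 1 SD without 1 library. Alternatives on FPKM were not run, since heat columns can be tied to a group by 1 measure only. Depth limits NR2 in heated HJX, with 21 to 55 reads per library, and nitrite reductase.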
